A study of Mus musculus with 7 samples.

Results

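The 7 genes described here encode the effectors of microRNA silencing: the Argonautes Ago1, Ago2, Ago3 and Ago4, and the Argonaute-binding scaffolds Tnrc6a, Tnrc6b and Tnrc6c. They were found by platform gene symbol among 16819 named genes, and all 7 were measured, with the brightest probe set standing for a gene that had several. Whole liver RNA was profiled on 7 Affymetrix whole-transcript arrays, 1 per mouse liver. All mice were males of mixed 129S4 and C57BL/6 background with both Dicer1 alleles floxed (Dicer1 fl/fl), and were fasted for 4 hours before harvest. The groups were 0 weeks (control, 3 arrays), 2 weeks after AAV8-Ttr-Cre (2 arrays) and 4 weeks after AAV8-Ttr-Cre (2 arrays), with the virus given at 8 to 10 weeks of age. AAV8-Ttr-Cre is an adeno-associated virus in which the hepatocyte-active transthyretin promoter drives Cre recombinase. The design has neither a control virus lacking Cre nor uninjected livers at the later times, so loss of Dicer1, the virus, Cre itself and elapsed time cannot be told apart. The other cells of the liver, such as endothelial and Kupffer cells, are not meant to lose Dicer1. Arrays of a group are biological replicates by their titles.

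Dicer1 cuts microRNA hairpins in the cytoplasm, and an Argonaute protein takes up 1 strand of the product as its guide. The guide pairs with messenger RNAs mainly through its seed, bases 2 to 8. A Tnrc6 protein (GW182 in older papers) then binds the Argonaute through tryptophan residues and recruits the PAN2-PAN3 and CCR4-NOT deadenylases, after which the message is decapped and degraded. All 4 mammalian Argonautes bind guides, and Ago2 is the one that efficiently slices a fully paired target. Unloaded Argonaute protein is known to be less stable, a property of the protein that RNA arrays do not measure.

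The series title names miR-29a, which is shown to make clear what Dicer1 makes and these effectors carry. The hairpin is followed by the mature strand, both credited to RefSeq (GRCm38.p6, minus strand, hairpin at chr6:31062660-31062747). Capitals mark the mature strand in the hairpin and the seed in the mature strand.

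Mir29a hairpin: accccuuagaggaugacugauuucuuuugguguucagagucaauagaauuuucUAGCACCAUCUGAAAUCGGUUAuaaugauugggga

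miR-29a-3p: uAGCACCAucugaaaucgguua

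The arrays gave 1 log2 signal per probe set, and their medians were nearly equal, between 7.07 and 7.09. As a check of the labels, Dicer1 fell by 0.71 on the log2 scale over both times after Cre (SE 0.07, adjusted p = 0.00675, limma), with all 4 arrays after Cre below all 3 controls. The probes' positions along Dicer1 are not known here, so the residual signal has no simple reading as remaining transcript. Of 35 measured markers of hepatocytes and 6 other liver cell classes, 2 rose (Pdgfrb of stellate cells and Sox9 of bile duct cells) over both times after Cre. In the same comparison 1 fell (Tat of hepatocytes). These were 5.71% and 2.86% of the markers, where 6.79% of all genes rose and 6.12% fell. No marker passed at 2 weeks, where 5.93% of all genes did. At 4 weeks Sox9 and the endothelial marker Clec4g rose, or 5.71% of the markers, where 5.15% of all genes rose. The mean log2 signal of the 6 hepatocyte markers was 14.18 to 14.21 on the control arrays at 0 weeks and 14.01 to 14.07 at 2 weeks and at 4 weeks. Tat weighs most in this shift, with a log2 change of -0.62 over both times, where the median of the 6 was -0.094. The means of these markers lay near the highest signals of the arrays, 14.64 to 14.72. How far this narrows their changes was not tested. The mean log2 signal of the 6 stellate markers was 8.60 to 8.63 at 0 weeks, 8.75 to 8.82 at 2 weeks and 8.73 to 8.79 at 4 weeks, with all arrays after Cre above the controls. The 6 endothelial markers averaged 9.05 to 9.12 at 0 weeks, 8.96 to 9.33 at 2 weeks and 9.17 to 9.35 at 4 weeks. The 4 bile duct markers averaged 6.68 to 6.77 at 0 weeks, 6.74 to 6.95 at 2 weeks and 6.82 to 6.92 at 4 weeks, so both lists lay above the controls at 4 weeks and overlapped them at 2 weeks. The ranges of the Kupffer cell, lymphocyte and neutrophil lists overlapped between controls and both times. The part of these small shifts in the results for the effectors was not tested. In whole liver, more cells of a type and more RNA per cell cannot be told apart.

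The Tnrc6 genes were higher after Cre and the Argonautes, apart from Ago4, differed little from control. Against control, Tnrc6a was up 2.23-fold (2 weeks) and 2.21-fold (4 weeks), and Tnrc6b 1.90-fold and 1.66-fold. Tnrc6c rose 1.48-fold at 4 weeks and stood at the same 1.48-fold at 2 weeks, where it did not pass the test. By their brightest probe sets, Ago1, Ago2 and Ago3 differed from control by at most 0.12 log2 units (Ago3 at 2 weeks). A second probe set of Ago2 was 0.14 higher at 2 weeks. Ago4 was 1.60-fold and 1.44-fold higher without passing. The test was limma on all genes, two-sided, with Benjamini-Hochberg adjustment across 16819 genes and a threshold of 0.05. At 2 weeks 2 of the 7 genes passed, both higher, where 5.93% of all genes passed, 3.46% higher and 2.47% lower. At 4 weeks 3 passed, all higher, where 9.77% of all genes passed, 5.15% higher and 4.62% lower. Over both times, taken as the mean of the 2 week and 4 week groups, 3 of the 7 passed, all higher, where 12.9% of all genes passed, 6.79% higher and 6.12% lower. The median log2 change over the 7 genes was 0.57 at 2 weeks and 0.53 at 4 weeks, where that over all genes was -0.0024 and 0.0080. The comparisons at 2 and 4 weeks share their 3 control arrays, so they are not independent of each other.

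**Figure D1:**
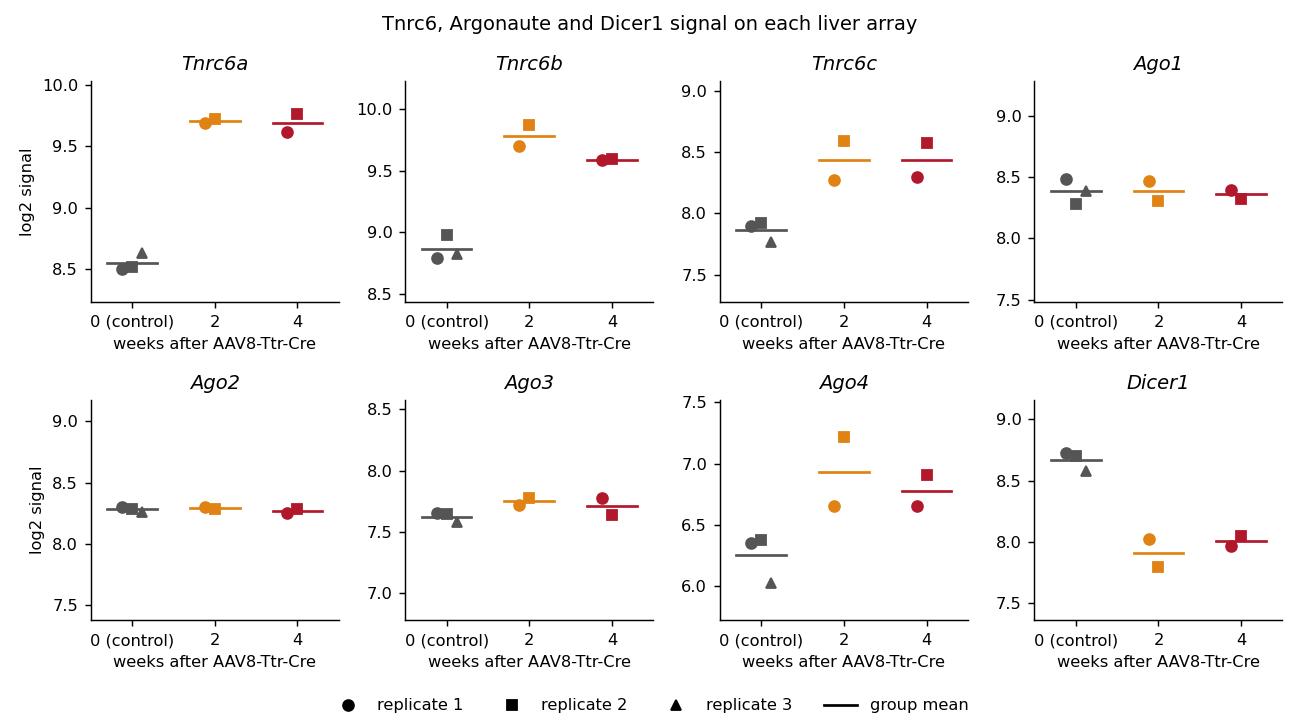
Log2 signal (vertical axis) of the 7 effector genes and Dicer1 on each array, by weeks after AAV8-Ttr-Cre (horizontal axis); symbols are replicates, lines are group means, and every panel spans 1.8 log2 units. Tnrc6a, Tnrc6b, Tnrc6c and Ago4 sit above all controls on the 4 arrays after Cre, Dicer1 sits below, and Ago1 and Ago2 overlap across groups.

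Tnrc6a, the founding member of the scaffold family, had the largest log2 change of the 7 genes. It read 8.50, 8.52 and 8.64 on the control arrays at 0 weeks, 9.69 and 9.72 at 2 weeks, and 9.62 and 9.77 at 4 weeks. All 4 arrays after Cre lay far above the controls, and those of the 2 times overlapped. The log2 change was 1.16 at 2 weeks (SE 0.07, adjusted p = 0.00402, limma) and 1.14 at 4 weeks (SE 0.07, adjusted p = 0.00286). Among all genes its change ranked 110 from the highest at 2 weeks and 126 at 4 weeks. Without any 1 of the 7 arrays it stayed past the threshold at both times.

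Tnrc6b, a broadly expressed paralogue with the same role, was also higher after Cre. Its signals were 8.79, 8.98 and 8.82 at 0 weeks, 9.70 and 9.87 at 2 weeks, and 9.59 and 9.59 at 4 weeks. All 4 arrays after Cre lay above the controls, and those at 4 weeks lay below those at 2 weeks. The log2 change was 0.92 at 2 weeks (SE 0.08, adjusted p = 0.00857, limma) and 0.73 at 4 weeks (SE 0.08, adjusted p = 0.0109). Leaving out control replicate 3 gave adjusted p-values of 0.0573 at 2 weeks and 0.054 at 4 weeks. Without 4 week replicate 1 or 2, that at 4 weeks was 0.0752 or 0.0756, with log2 changes of 0.73 in both. Over both times Tnrc6b was 1.77-fold higher (adjusted p = 0.00424), and this call held without each of the 7 arrays in turn.

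Tnrc6c, the remaining scaffold paralogue, had the smallest change of the Tnrc6 genes and the widest spread after Cre. It read 7.90, 7.92 and 7.77 at 0 weeks, 8.28 and 8.59 at 2 weeks, and 8.29 and 8.58 at 4 weeks. Both times had 1 lower and 1 higher array, with every array after Cre above the controls. The log2 change was 0.57 at 2 weeks (SE 0.13, adjusted p = 0.0625, limma) and 0.57 at 4 weeks (SE 0.13, adjusted p = 0.0495). The adjusted p at 4 weeks rose to 0.122, 0.128 and 0.15 without control replicate 1, 2 or 3, and to 0.0989 and 0.208 without 4 week replicate 1 or 2. Without 2 week replicate 1, Tnrc6c passed at 2 weeks too (log2 change 0.72, adjusted p = 0.0428), and without 2 week replicate 2 it was at 0.41 (adjusted p = 0.199). Over both times it was 1.48-fold higher (adjusted p = 0.0263), with an adjusted p of 0.0526 to 0.107 without any 1 array other than 2 week replicate 1.

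Ago1, Ago3 and Ago4 are neighbours in the RefSeq gene order of mouse chromosome 4, in the order Ago3, Ago1, Ago4, with no other gene between them. Ago1 read 8.49, 8.28 and 8.39 at 0 weeks, 8.47 and 8.31 at 2 weeks, then 8.39 and 8.32 at 4 weeks. The arrays of the 3 groups overlapped. Its log2 change was 0.0043 at 2 weeks (95% interval -0.20 to 0.21, adjusted p = 0.995, limma) and -0.025 at 4 weeks (-0.23 to 0.18, adjusted p = 0.901). These intervals leave room for a rise of up to 0.21 and for values down to -0.23 log2 units.

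Ago3, whose signals were 7.65, 7.64 and 7.58 at 0 weeks, read 7.72 and 7.77 at 2 weeks, then 7.78 and 7.64 at 4 weeks. Both arrays at 2 weeks lay above the controls, and 1 of the 2 at 4 weeks lay among them. The log2 change was 0.12 at 2 weeks (95% interval -0.019 to 0.27, adjusted p = 0.276, limma) and 0.085 at 4 weeks (-0.057 to 0.23, adjusted p = 0.435).

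Ago4, the dimmest of these probe sets on every array, varied most among the Argonautes. It read 6.35, 6.38 and 6.03 at 0 weeks, 6.65 and 7.22 at 2 weeks, and 6.65 and 6.90 at 4 weeks. All 4 arrays after Cre lay above the 3 controls, yet control replicate 3 lay apart from the other controls, and 2 week replicate 2 lay highest. The log2 change was 0.68 at 2 weeks (SE 0.20, 95% interval 0.18 to 1.18, adjusted p = 0.115, limma) and 0.53 at 4 weeks (SE 0.20, 0.029 to 1.03, adjusted p = 0.179). Over both times it was 0.60 (SE 0.17, adjusted p = 0.0748). Leaving out 2 week replicate 1, the lower array at that time, gave 0.96 at 2 weeks (adjusted p = 0.0472) and 0.75 over both times (adjusted p = 0.0351). Leaving out 2 week replicate 2, the higher array, gave 0.40 at 2 weeks (adjusted p = 0.343) and 0.46 over both times (adjusted p = 0.125). A group left with 1 array is assumed in such fits to vary like the other groups. At 4 weeks Ago4 did not pass without any 1 array.

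Ago2, the slicing Argonaute, gave nearly the same signal on all 7 arrays by its brightest probe set. It read 8.30, 8.29 and 8.26 at 0 weeks, 8.30 and 8.29 at 2 weeks, then 8.25 and 8.29 at 4 weeks. The groups overlapped. The log2 change was 0.014 at 2 weeks (95% interval -0.081 to 0.11, adjusted p = 0.864, limma) and -0.011 at 4 weeks (-0.11 to 0.084, adjusted p = 0.905). The exact value 8.2903 stood on 3 arrays, 1 of each group, and the part of such repeats in the narrow interval was not tested. A second probe set of Ago2 read 8.06, 8.06 and 7.94 at 0 weeks, 8.26 and 8.06 at 2 weeks, then 8.13 and 8.05 at 4 weeks. It too held a value, 8.05541, on 3 arrays. The log2 change of this second probe set was 0.14 at 2 weeks, 0.072 at 4 weeks and 0.11 over both times. Over both times its adjusted p was 0.39 (limma, over all probe sets).

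**Figure D2:**
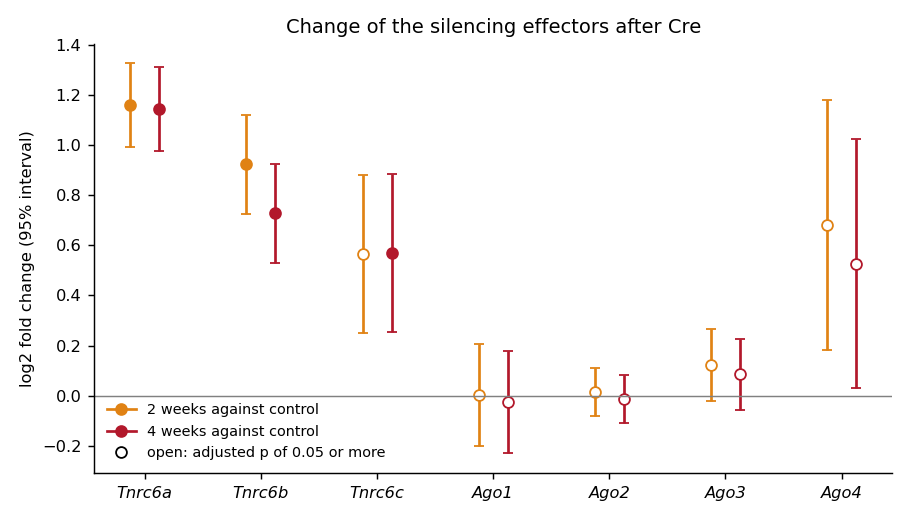
Log2 fold change against control (vertical axis) of each effector gene at 2 and at 4 weeks, with 95% intervals from limma; filled points have an adjusted p under 0.05. The Tnrc6 genes and Ago4 have intervals above 0 at both times, and those of Ago1, Ago2 and Ago3 include 0.

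By adjusted p, 0 of the 4 Argonautes changed in any comparison by limma, and at an unadjusted p under 0.05 it was 1 of 4, Ago4, at 2 weeks, at 4 weeks and over both. Of all genes, 23.0% had an unadjusted p under 0.05 at 2 weeks, 24.8% at 4 weeks and 27.4% over both. At 2 weeks both arrays lay above all controls for 5 of the 7 genes (17.3% of all genes) and at 4 weeks for 4 (21.6%), Ago3 being the one that differed. For Tnrc6a, Tnrc6b, Tnrc6c and Ago4, or 4 of the 7, all arrays after Cre lay above all controls, as for 12.9% of all genes. The reverse, lower than all controls, was seen in 0 of the 7 at 2 weeks (17.5% of all genes), at 4 weeks (18.2%) and over both (12.2%). A value shared between groups can block such a separation. Exact repeats were common among all probe sets, while Tnrc6a, Tnrc6b, Tnrc6c and Ago4 held none. The part of repeats in the shares of all genes was not tested.

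Between 4 and 2 weeks, 0 of the 7 genes differed by limma, and 0 at an unadjusted p under 0.05. Over all genes 1 gene differed, or 0.00595%, and 7.43% had an unadjusted p under 0.05. Tnrc6b came closest, with a log2 difference of -0.20 (4 weeks minus 2 weeks, 95% interval -0.41 to 0.021, unadjusted p = 0.0689, adjusted p = 0.71). It was also the 1 gene of the 7 whose arrays at 4 weeks both lay below those at 2 weeks, as in 11.6% of all genes. For Tnrc6a the difference was -0.013 (-0.20 to 0.17) and for Tnrc6c 0.0027 (-0.34 to 0.35). From low to high, the group means of Tnrc6a, Tnrc6b and Ago4 ran control, 4 weeks, 2 weeks. The arrays of the 2 times overlapped for Tnrc6a and Ago4 and not for Tnrc6b, and the difference between the times passed the test for none of them. For Tnrc6c the mean was 8.43 at both times.

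The size of the change was set between pairs of genes by the difference of their log2 signals within each array, after Cre (n = 4) against control (n = 3). With 35 splits of the arrays, the exact permutation test, whose two-sided p doubles the smaller tail, cannot go below 0.0571, so no pair could pass. Adjusted over the 6 pairs compared, the lowest value seen was 0.0686. Tnrc6a minus Ago2 was 1.42 ± 0.05 after Cre and 0.27 ± 0.10 in controls (SD), a change of 1.15 with the smallest p possible (exact permutation, 0.0571). As Tnrc6a alone separated the groups and Ago2 hardly varied, that p followed from the signals already given. The pairs were chosen with earlier results of these data known, so the p-values of the pairs are only a description. Tnrc6a minus Tnrc6c was 1.27 ± 0.13 after Cre and 0.68 ± 0.16 in controls, and Tnrc6a minus Tnrc6b was 0.011 ± 0.13 after Cre and -0.31 ± 0.14 in controls. Both of these also reached the smallest p. Tnrc6b minus Tnrc6c changed by 0.26, with ranges that overlapped (exact permutation p = 0.171). Ago4 minus its neighbour Ago1 was -1.52 ± 0.33 after Cre and -2.13 ± 0.23 in controls, a change of 0.62, and Ago4 minus Ago3 changed by 0.50, both at the smallest p. Differences between probe sets are compared here only across arrays, since the level of 1 probe set says nothing about that of another.

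Replicate 2 was higher than replicate 1 in all 3 groups for Ago4 and the Tnrc6 genes, and lower for Ago1. The share of all genes with such a run was not computed, and several of these differences were very small. For Ago4 replicate 2 minus replicate 1 was 0.029 at 0 weeks, 0.56 at 2 weeks and 0.25 at 4 weeks, and for Tnrc6c 0.022, 0.31 and 0.28. For Tnrc6a the same difference was 0.018 at 0 weeks, 0.030 at 2 weeks and 0.15 at 4 weeks, for Tnrc6b 0.19, 0.17 and 0.0033, and for Ago1 -0.21, -0.17 and -0.070. Replicate 1 at 2 weeks was the lower of its pair for Ago3, Ago4 and all Tnrc6 genes, and the higher for Dicer1, at 8.03 and 7.79. Its part in these results beyond the fits without it was not tested.

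The genes most like each Tnrc6 gene were taken by Pearson's r over the 7 arrays among 1678 genes with an SD of at least 0.3 log2 units. The arrays fall into those after Cre and the controls, so r rests largely on that step and is given as a description. Nearest to Tnrc6a were Coq3, a methyltransferase of coenzyme Q synthesis (r = 0.997), the ubiquitin ligase Rnf125 (0.996), the fibrinogen chain Fga (0.995), Fam160a1 (0.995) and the ubiquitin ligase Rnf167 (0.994). Rnf125 was 2.00 log2 units higher at 2 weeks and 2.01 at 4 weeks, and Coq3 1.27 at both. Nearest to Tnrc6b were Ubxn1 (0.996), Zcchc2 (0.991), Abhd18 (0.989), Desi2 (0.987) and the zinc transporter Slc39a4 (0.987). Nearest to Tnrc6c were the antiviral zinc finger gene Zc3hav1 (0.994), Calcoco1 (0.992), Arhgef7 (0.991), the vesicle fusion ATPase Nsf (0.991) and the aminopeptidase Rnpep (0.989).

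RefSeq promoter windows of 300 bases, from 250 before to 50 after a transcript start (GRCm38.p6), were at hand for 6 of the 7 genes in 8 windows, and not for Ago2. A window of each Tnrc6 gene and of Ago4 is shown because these 4 genes were higher on every array after Cre. Tnrc6b has a second window, not printed. Capitals mark the GC box (GGGCGG) and the CCAAT box (CCAAT) on either strand.

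Tnrc6a, chr7:123123635-123123934, plus strand: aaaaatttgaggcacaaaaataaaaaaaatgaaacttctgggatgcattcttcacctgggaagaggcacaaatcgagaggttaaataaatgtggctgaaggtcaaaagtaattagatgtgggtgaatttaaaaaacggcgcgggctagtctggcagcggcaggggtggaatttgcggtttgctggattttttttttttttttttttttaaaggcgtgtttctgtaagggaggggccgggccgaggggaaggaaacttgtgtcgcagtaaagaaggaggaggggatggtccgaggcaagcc

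Tnrc6b, chr15:80711063-80711362, plus strand: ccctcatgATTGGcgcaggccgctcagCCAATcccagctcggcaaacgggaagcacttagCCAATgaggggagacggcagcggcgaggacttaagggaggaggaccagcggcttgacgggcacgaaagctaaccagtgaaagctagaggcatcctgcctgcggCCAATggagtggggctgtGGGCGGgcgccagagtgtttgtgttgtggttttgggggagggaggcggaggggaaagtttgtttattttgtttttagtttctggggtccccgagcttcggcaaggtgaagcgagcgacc

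Tnrc6c, chr11:117654039-117654338, plus strand: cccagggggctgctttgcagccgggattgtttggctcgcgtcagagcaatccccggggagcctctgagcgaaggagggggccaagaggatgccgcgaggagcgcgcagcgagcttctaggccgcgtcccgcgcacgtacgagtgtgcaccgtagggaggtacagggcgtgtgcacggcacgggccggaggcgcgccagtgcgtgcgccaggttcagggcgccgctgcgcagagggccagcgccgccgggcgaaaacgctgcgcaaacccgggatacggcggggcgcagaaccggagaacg

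Ago4, chr4:126533409-126533708, minus strand: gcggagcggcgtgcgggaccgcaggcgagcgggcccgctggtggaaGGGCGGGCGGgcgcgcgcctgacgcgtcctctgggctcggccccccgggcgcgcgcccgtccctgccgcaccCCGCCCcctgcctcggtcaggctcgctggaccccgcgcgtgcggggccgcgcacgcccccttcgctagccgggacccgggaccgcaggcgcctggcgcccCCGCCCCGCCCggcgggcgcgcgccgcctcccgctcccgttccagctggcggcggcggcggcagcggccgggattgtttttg

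The windows differ in composition. Those printed hold 11 CG dinucleotides in Tnrc6a, 18 in Tnrc6b, 40 in Tnrc6c and 54 in Ago4, and the second Tnrc6b window holds 9, where the median of all 32851 windows is 7. The printed Tnrc6b window has 4 CCAAT boxes and 1 GC box and the second has neither. Ago4 has 5 GC boxes, of which 2 pairs overlap, and Tnrc6a and Tnrc6c have neither motif. Of all windows, 37.4% hold a CCAAT box and 35.7% a GC box. Ago1, which stayed near control, has 1 CCAAT box and 2 GC boxes in each of its overlapping windows. The E-box (CACGTG, in 7.15% of all windows) was found once, in the second window of Tnrc6b. The ETS motif (CCGGAAG, in 8.86%) was found in the window of Ago3. Searched as well, on both strands, were the TATA box (TATAAA, in 13.6% of all windows), the AP-1 motif (TGANTCA, 7.81%), the CREB motif (TGACGTC, 3.21%), the NRF1 motif (GCATGCG, 3.58%) and the YY1 motif (AAGATGG, 6.34%). These letters were not in the 8 windows.

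Other genes of the silencing pathway, or linked to it, were taken in 7 lists, from microRNA processing to message decay. Some have roles outside microRNA silencing, such as Zfp36, Zfp36l1, Larp1 and the PIWI genes. Of the 96 listed genes 88 were measured. Over both times after Cre 19 of them rose and 6 fell (21.6% and 6.82%), against 6.79% and 6.12% of all genes. At 2 weeks 9 rose and 3 fell (10.2% and 3.41%), against 3.46% and 2.47% of all genes. At 4 weeks 12 rose and 4 fell (13.6% and 4.55%), against 5.15% and 4.62% of all genes. Dicer1, the floxed gene itself, is counted among those that fell in each comparison. The lists were chosen with earlier results of these data known, so these shares are only a description. The values that follow are log2 changes over both times by limma unless a time is given.

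Of 13 microRNA processing genes, 3 rose and 1, Dicer1, fell (median 0.17). The helicase gene Ddx17, a cofactor of the nuclear processing complex, rose by 0.82 (SE 0.06, adjusted p = 0.00419), Drosha, the nuclease of that complex, by 0.71 (adjusted p = 0.0275), and Tut4, which adds uridines to microRNA precursors, by 0.90 (adjusted p = 0.0334). Ddx5, the paralogue of Ddx17, was at 0.29 (adjusted p = 0.0509) and Tut7 at 0.37 (adjusted p = 0.0676).

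Of 12 chaperone genes linked to Argonaute loading, 0 rose by adjusted p and 2 fell (1 higher and 4 lower at an unadjusted p under 0.05, median -0.060). The Hsp40 gene Dnajb1 fell by 0.84 (SE 0.12, adjusted p = 0.0119) and the Hsp90 cochaperone gene Ptges3 by 0.17 (adjusted p = 0.0348). Hspa8, which encodes the constitutive Hsp70, was at -0.59 (adjusted p = 0.41), with arrays from 10.98 to 12.93 after Cre and 12.43 to 13.53 in controls. Fkbp5, named after its value was seen, had the largest change of the list, -1.19, without passing. It read 8.53 to 9.35 after Cre and 9.91 to 10.60 in controls. The Hsp90 genes Hsp90aa1 and Hsp90ab1 were listed and not measured.

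Of 20 genes for Argonaute partners and turnover, 6 rose and 0 fell by adjusted p (7 higher and 3 lower at an unadjusted p under 0.05, median 0.15). Zfp36l1 and Zfp36, which bind AU-rich elements and also recruit CCR4-NOT, rose by 1.33 (SE 0.12, adjusted p = 0.00567) and 0.78 (adjusted p = 0.0166). Mov10, a helicase that associates with Argonautes, rose by 0.72 (adjusted p = 0.0126). Ankrd52, a subunit of the phosphatase known to act on human AGO2, rose by 0.69 (adjusted p = 0.0279). P4hb was at -0.15 and the kinase gene Csnk1a1, whose product phosphorylates human AGO2, at 0.13, neither past the threshold.

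Of 15 genes of the CCR4-NOT deadenylase and its Btg and Tob adaptors, 4 rose and 1 fell (median 0.14). Cnot1, the scaffold that Tnrc6 proteins bind, read 10.38, 10.25 and 10.27 at 0 weeks, 10.67 and 10.62 at 2 weeks, then 10.80 and 10.85 at 4 weeks. It lay higher on every array after Cre than in any control. Cnot1 rose by 0.43 (SE 0.05, adjusted p = 0.00731), the deadenylase gene Cnot6 by 0.25 (adjusted p = 0.032), and the adaptor genes Btg1 and Btg2 by 1.07 (adjusted p = 0.00824) and 1.58 (adjusted p = 0.00999). The fall was that of the adaptor gene Tob2, by 0.51 (adjusted p = 0.0335), which was named after its value was seen. Tob1 was at 0.16 (adjusted p = 0.0744), although it passed at 4 weeks (0.25, adjusted p = 0.0438), and Cnot8 at 0.0054.

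Of 10 genes of PAN2-PAN3 and poly(A) binding, 2 rose and 1 fell (median -0.021). Pan2, the catalytic deadenylase, rose by 0.38 (adjusted p = 0.0286) and Larp1, which binds messages of the translation machinery, by 0.58 (adjusted p = 0.0358). Pabpc1, the main cytoplasmic poly(A)-binding protein, through which Tnrc6 proteins also reach the poly(A) tail, fell by 0.22 (adjusted p = 0.027). It read 12.74, 12.87 and 12.80 at 0 weeks, 12.54 and 12.56 at 2 weeks, and 12.59 and 12.63 at 4 weeks, with every array after Cre below the controls. Paip1 was at -0.10 and Pabpn1 at 0.067, both short of the threshold.

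Of 15 decapping and decay genes, 4 rose and 1 fell (median 0.081). The decapping enzyme gene Dcp2 rose by 0.31 (adjusted p = 0.0128), its activator Patl1 by 0.33 (adjusted p = 0.017), and the exonuclease gene Xrn1 by 0.28 (adjusted p = 0.0236). Edc3, an enhancer of decapping named after its value was seen, rose by 0.69 (adjusted p = 0.0258). Eif4e2, a cap-binding repressor of translation, fell by 0.23 (adjusted p = 0.0202). The helicase gene Ddx6 was at -0.012 and Gigyf2 at 0.18, neither past the threshold.

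The PIWI clade, the germline branch of the Argonaute family, did not change by adjusted p in any comparison (0 of 3 by limma, and 0 at an unadjusted p under 0.05). Piwil2 was at 0.096 and Piwil4 at 0.020. These probe sets read 5.39 to 5.83, below the array medians of 7.07 to 7.09, and without detection calls they may be too dim to show a change. Piwil4 held the value 5.63238 on control replicate 1 and on every array after Cre.

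**Figure D3:**
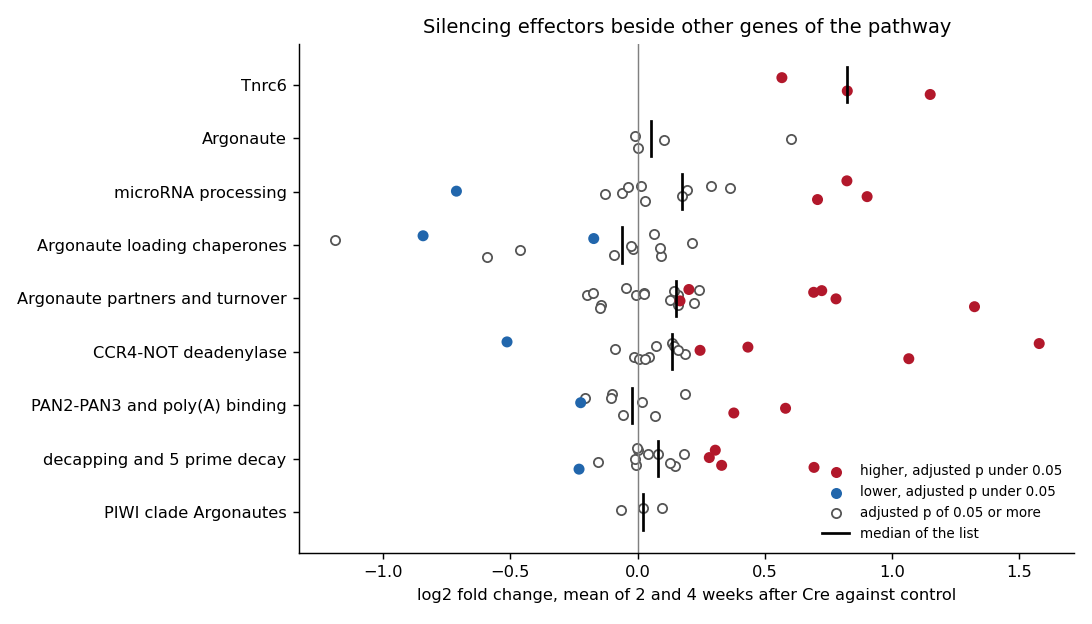
Log2 fold change over both times after Cre against control (horizontal axis) of the Tnrc6 genes, the Argonautes and 7 lists of pathway and linked genes (rows). Each point is a gene, colour marks an adjusted p under 0.05, and bars are medians. The Tnrc6 median of 0.82 and the Argonaute median of 0.05 stand beside list medians between -0.060 and 0.17.

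**Figure D4:**
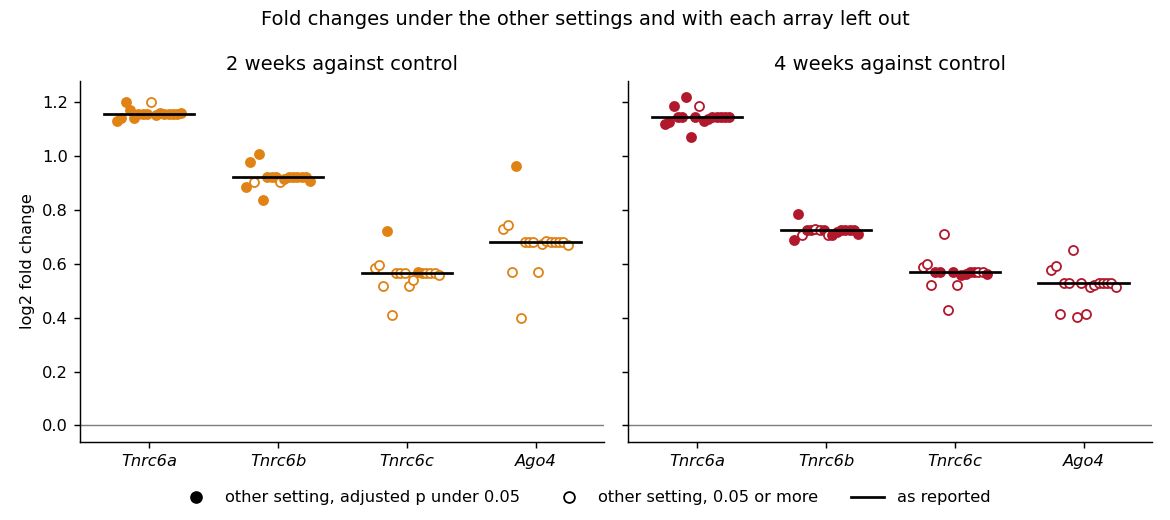
Log2 fold change against control (vertical axis) of the 3 Tnrc6 genes and Ago4 at 2 and 4 weeks under each other setting or with 1 array left out (points, filled for an adjusted p under 0.05); bars are the reported values. Tnrc6a stayed between 1.07 and 1.22, and all points of the 4 genes lie above 0.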

How the data were processed

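The series matrix held log2 signals for 21093 probe sets on 7 arrays; the log2 scale was read from the deposited values. GCOS 1.4 is named in the submitters' processing notes, with no role. How probes were summarised, background corrected and normalized was not given in the sources used here. Detection calls and scan dates were not used here. The platform annotation gave 1 gene symbol for 17709 probe sets, several for 187 and none for 3197. The brightest probe set was kept for each of 16819 genes.

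One limma model with the 3 groups was fitted to all genes (limma 3.58.1, R 4.3.3; lmFit and eBayes, 4 residual degrees of freedom), with no further scaling and no filter. Contrasts set 2 weeks, 4 weeks and the average of both against control, and 4 weeks against 2 weeks. The steps were tested on simulated data. The number of arrays limits the precision. The p-values of limma set each difference against the spread of these arrays within groups, moderated over all genes.

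The genes, lists and tests were chosen with earlier results of these data known. In each pathway list up to 4 passing genes with the smallest adjusted p over both times, and up to 2 others with the highest mean, were named. Alternatives were leaving out each array, fits of the compared groups alone, a replicate block, quantile normalization, median centring, a filter on dim genes, other probe set rules, an intensity trend and array weights.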

Additional observations from a re-analysis of the deposited data

How the results depend on the processing

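With 1 array left out at a time, the number of the 7 genes called was 1 to 4 at 2 weeks, 1 to 3 at 4 weeks, 2 to 4 over both times and 0 to 0 between the times, against 2, 3, 3 and 0 as reported. The number of all genes called moved too, to 41 to 2168 at 2 weeks, 63 to 1948 at 4 weeks and 570 to 2788 over both, against 997, 1643 and 2171 as reported. Such fits have fewer residual degrees of freedom. Of the 7, the count was 1 at 2 weeks without control replicate 3 and 4 without 2 week replicate 1, and 1 at 4 weeks without control replicate 3 or either 4 week array.

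The replicate block called 0 of the 7 at 2 weeks, at 4 weeks and over both, and 0, 2 and 5 of all genes. Its log2 change for Tnrc6a was 1.20 at 2 weeks (adjusted p = 0.0885). Nothing in the labels ties arrays of 1 number together, and the differences of replicate 1 and 2 correlated across genes at 0.0035, -0.074 and 0.11 between the groups, so the numbers were not taken as pairs. Control replicate 3 is the only array of its number, so the block fits it exactly, and the log2 changes equal those without that array. The block fit has fewer residual degrees of freedom. Its SE for Tnrc6a at 2 weeks was 0.060, against 0.067 as reported. The cause of the lost calls was not tested further.

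In the other settings the counts of the 7 genes stayed within 1.5 times the reported ones, while all genes called at 2 weeks were 276 in a fit of those groups alone and 439 with array weights. Between the times, 0 genes passed in a fit of those groups alone, against 1. Tnrc6c passed at 2 weeks with median centring (0.0483) or without dim genes (0.0449) and missed at 4 weeks over all probe sets (0.0539) or with an intensity trend (0.0517). The sign of Tnrc6a, Tnrc6b, Tnrc6c, Ago3 and Ago4 against control held in all settings. Values close to 0 changed sign. With quantile normalization Ago1 was at -0.031 and Ago2 at -0.015 at 2 weeks, and Ago2 at -0.019 over both times, where it was -0.011 with the replicate block and -0.00093 with median centring. Ago1 over both times was 0.0048 with array weights, Ago2 at 4 weeks 0.030 by the mean of its probe sets, and Tnrc6c between the times -0.0058 with median centring. With 1 array left out, Ago1 ran from -0.078 to 0.087 at 2 weeks, -0.078 to 0.026 at 4 weeks and -0.063 to 0.041 over both, and Ago2 from -0.030 to 0.0074 at 4 weeks and -0.011 to 0.011 over both. Between the times the ranges were -0.11 to 0.053 for Ago1, -0.11 to 0.031 for Ago3, -0.44 to 0.13 for Ago4, -0.087 to 0.061 for Tnrc6a and -0.15 to 0.16 for Tnrc6c. Dim probe sets such as that of Ago4 have no detection call here.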

Other observations

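Exact repeats of a value, as in both Ago2 probe sets, were common in the deposited table. Of 21093 probe sets, 12576 (59.6%) held the same value to every printed digit on at least 2 arrays, and 8275 (39.2%) on at least 3. None of the probe sets of Tnrc6a, Tnrc6b, Tnrc6c, Ago1, Ago3 or Ago4 did. What made these repeats was not tested.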
